A study of Homo sapiens with 6 samples.

Results

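The metalloendopeptidases that are not matrix metalloproteinases were examined in breast cancer cells with and without knockdown of SPANXB1. The set was defined by gene symbol, and it was chosen with earlier results of these data known. It holds 42 genes: 9 ADAMs, 16 ADAMTSs, 3 tolloid astacins, 3 members of the neprilysin family, 2 thimet-type oligopeptidases, 4 proteases of the pitrilysin fold, 4 proteases of the mitochondrial membranes and the prelamin A protease ZMPSTE24. Of these, 40 were among the 16570 genes of the expression table, and ADAMTS10 and ECE2 were not analysed here.

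BR cells (MDA-MB-231BR) are a variant of the human triple-negative breast cancer line MDA-MB-231 that was selected for growth in the brain. BR-shCON cells carried the control vector, which the study describes as empty, and BR-shSPANXB1 cells carried a lentiviral short hairpin RNA against SPANXB1, a cancer-testis antigen. Both lines were stable, selected with puromycin and grown in serum-containing medium, only 1 hairpin sequence was used, and the sources used here do not give whether a line was a pool or a clone. RNA-seq covered 3 samples of each line, which the submitters call independent, and the study asked which genes respond to the loss of SPANXB1. The extraction text in the labels, shared by all samples, names the parental line and BR cells without the knockdown, so the groups rest on the sample titles and cell types.

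Estimated read counts summed to between 16294462 and 16666167 per sample. SPANXB1, the targeted gene, was measured at 445, 563 and 515 FPKM (mapped fragments scaled by transcript length and by library size) in BR-shCON cells and at 232, 260 and 248 FPKM in BR-shSPANXB1 cells, so the targeted gene was lower in every knockdown sample. The log2 fold change was -1.11 with a standard error (SE) of 0.05 (adjusted p = 1.79e-14 in edgeR's quasi-likelihood test, adjusted over all tested genes by the method of Benjamini and Hochberg). Genes used as markers of this breast cancer line (VIM, CD44, EGFR, KRT8, KRT18 and FN1) were all expressed, with a summed level of 2959 to 3033 FPKM in BR-shCON and 3057 to 3267 FPKM in BR-shSPANXB1 cells, while ESR1, PGR and GATA3 did not pass the expression filter. Markers of other cells were low, with a sum of 2.80 to 3.48 FPKM over the 4 endothelial genes and under 1 FPKM over the 2 leukocyte genes present in the table. The neural list reached 31.5 to 33.8 FPKM, nearly all of it MBP. Some markers moved with the groups: KRT8 was higher at a log2 fold change of 0.19 and KDR, an endothelial gene, lower at -0.36, with CDH5 and VWF under 1 FPKM, while the leukocyte sum was 0.36 to 0.63 FPKM in BR-shCON and 0.76 to 0.87 FPKM in BR-shSPANXB1 cells. Their part in the results was not tested.

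The 21-base sequence that the hairpin targets is shown because it defines the perturbation, and because matches to it in the protease transcripts bear on how their values are read.
shSPANXB1: gaggaggaggaattcatagaa
Among GENCODE v29 transcripts it matched those of 1 gene exactly, SPANXB1. The best alignments without gaps to the transcripts of the 40 measured proteases had between 4 and 9 mismatches, and the closest, with 4, lay in ADAMTS2, which was almost unexpressed. Only alignments over all 21 bases were scored, and shorter matches were not searched. Effects of the hairpin on transcripts other than SPANXB1 were therefore not tested.

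Most of these enzymes hold a zinc ion at the active site with a short histidine motif. ADAMs are membrane-anchored proteins with a disintegrin domain, and several cut the ectodomains of growth factors, cytokine receptors and adhesion molecules from the cell surface, a process called shedding. ADAMTSs are secreted relatives with thrombospondin repeats that process matrix proteoglycans, procollagens and fibrillins, and several of them are inhibited by TIMP3. The remaining families activate or degrade peptides (neprilysin family, oligopeptidases, insulin-degrading enzyme), keep up protein quality control in mitochondria, or mature prelamin A at the nuclear envelope.

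Expression of the 40 genes spanned several orders of magnitude. Of these, 26 had a mean of at least 1 FPKM over the 6 samples and were tested, and 18 of the 26 lay over 10 FPKM. ADAM9 was the most abundant at a mean of 82.7 FPKM, followed by ADAM15 at 78.0, ECE1 at 71.3, NRDC at 71.0, ADAM8 at 59.7 and YME1L1 at 58.6 FPKM. The ranges of the 6 samples overlapped between each of these genes and the next in that order, except between NRDC and ADAM8, so the other neighbouring ranks do not differ beyond the spread of the samples. ADAMTS3 was the lowest tested gene at a mean of 1.44 FPKM.

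The 14 genes under the filter were ADAM12, ADAM28, ADAM33, ADAMTS2, ADAMTS4, ADAMTS5, ADAMTS7, ADAMTS8, ADAMTS13, ADAMTS14, ADAMTS17, TLL1, TLL2 and MME. ADAMTS17 was just under it at a mean of 0.983 FPKM, and the other 13 had means under 0.25 FPKM. MME, which encodes neprilysin itself, had a mean of 0.00833 FPKM, and the aggrecanases ADAMTS4 and ADAMTS5 had means of 0.0133 and 0.0967 FPKM. In 6 of the 14 genes fewer than 10 counts were collected over all samples together. Fitted without the filter, 0 of the 14 were called, beside 11.1% of the 16545 genes in that fit. Of the 14, 0 had an unadjusted p under 0.05 in edgeR, the only tool run without the filter. ADAMTS17 had a mean of 103 counts and a log2 fold change of -0.02 in that fit. Only 4 of the 14 averaged at least 10 counts per sample, so small differences in the others were not detectable at this depth.

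**Figure D1:**
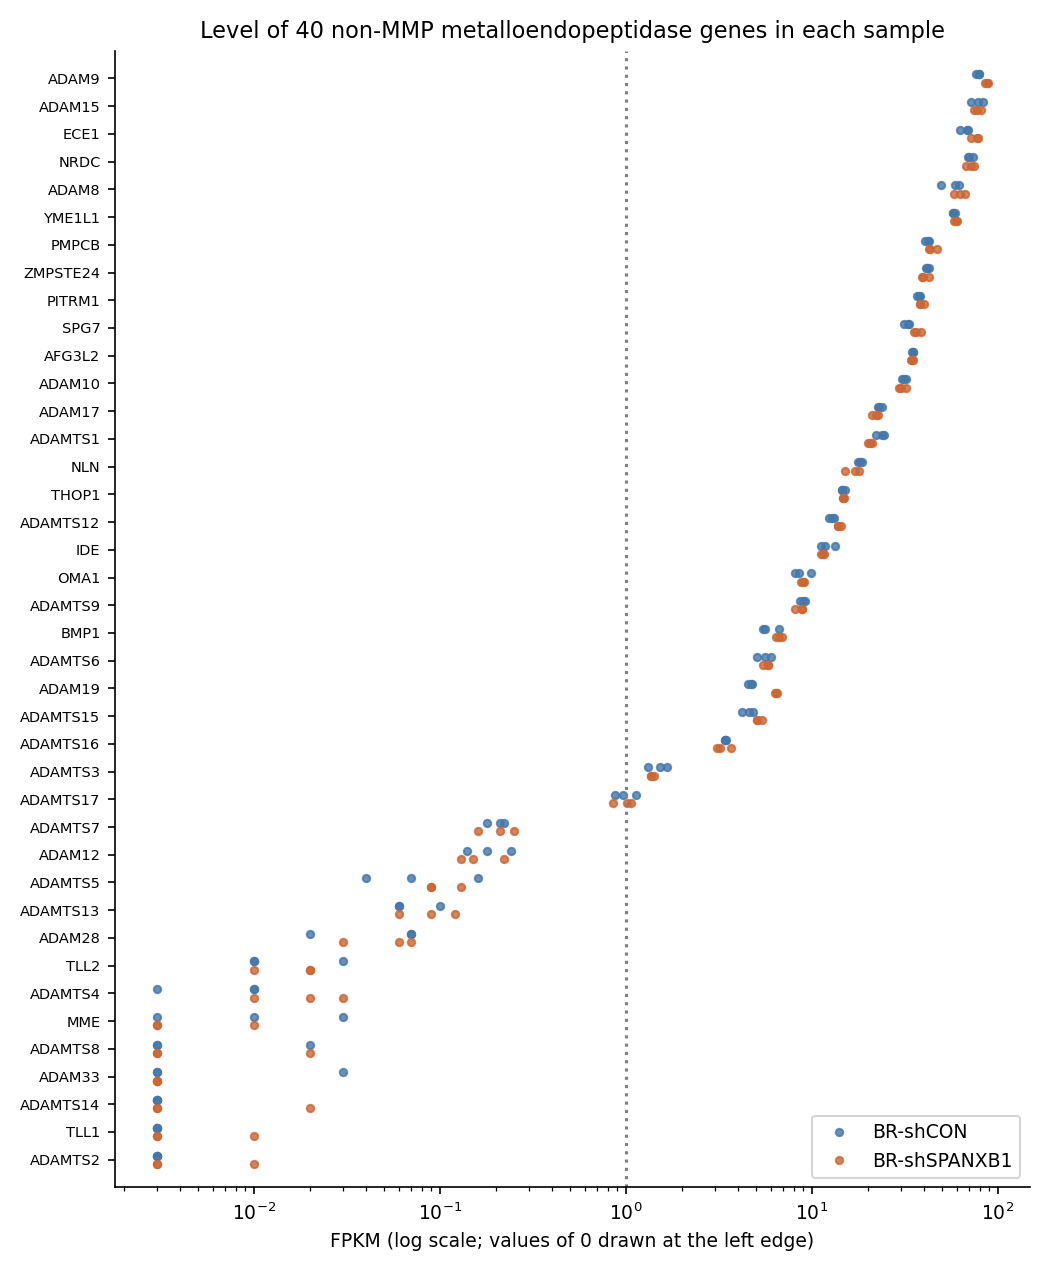
FPKM of the 40 measured metalloendopeptidase genes in each of the 6 samples, on a log axis with values of 0 at the left edge, BR-shCON in blue and BR-shSPANXB1 in orange; the dotted line marks 1 FPKM. The 26 tested genes lie between means of 1.44 and 82.7 FPKM, and the distance between genes is far larger than the distance between the groups.

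Knockdown of SPANXB1 was accompanied by small changes in a few of these genes. ADAM19, ADAM9, ECE1 and SPG7 were higher and ADAMTS1 was lower in BR-shSPANXB1 cells at an adjusted p under 0.05 over all tested genes, and 21 of the 26 were not called. The 5 called genes amount to 19.2% of those tested, beside 13.8% of all 11439 tested genes (6.82% higher and 6.98% lower). The median log2 fold change was -0.00 over the 26 genes and 0.00 over all genes, 13 genes had a positive and 13 a negative value, and the median absolute log2 fold change was 0.0785 beside 0.0772 over all genes. In RNA from a bulk culture, a change in the number of expressing cells and a change in RNA per cell cannot be told apart.

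None of these changes reached the criteria of the study, an absolute log2 fold change over 0.59 together with an adjusted p under 0.05 and a control level over 1 FPKM. Under these criteria 0 of the 26 genes passed, beside 0.624% of the 11374 genes that met the control level. The count was 0 by DESeq2 and limma as well, and 0 genes had an unadjusted p under 0.05 with a fold change of that size. The 95% interval of the log2 fold change lay within ±0.59 for each of the 26 genes in edgeR's fit.

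**Figure D2:**
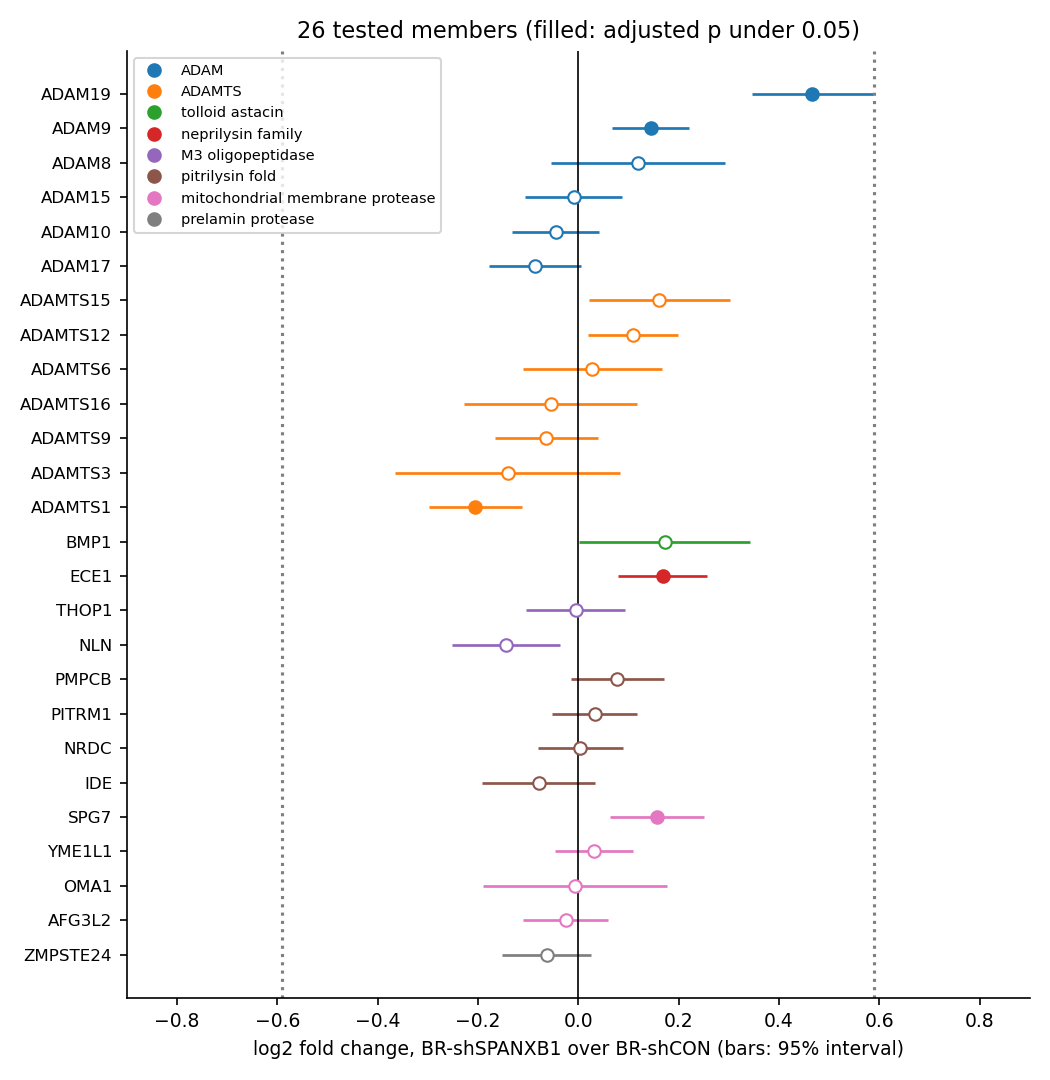
Log2 fold change of the 26 tested genes, BR-shSPANXB1 over BR-shCON, grouped by family colour, with 95% intervals from edgeR's quasi-likelihood fit; filled points passed an adjusted p of 0.05 and dotted lines mark ±0.59. ADAM19 stands farthest from 0 at 0.47, ADAMTS1 is lowest at -0.21, and no interval reaches the dotted lines.

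Among the ADAMs, 6 of 9 were tested, 2 rose and 0 fell. ADAM19 (meltrin beta, Entrez 8728) sheds neuregulins, among other substrates. It was measured at 4.70, 4.75 and 4.53 FPKM in BR-shCON cells and at 6.38, 6.43 and 6.51 FPKM in BR-shSPANXB1 cells. The groups were far apart and each was tight, with a mean of 4.66 ± 0.115 FPKM against 6.44 ± 0.0656 FPKM (SD, n = 3). The log2 fold change was 0.47 (SE 0.06, 95% interval 0.35 to 0.59), a rise of 38.2% in mean FPKM, with an adjusted p of 1.81e-06 in edgeR's quasi-likelihood test. These values rest on 459 to 486 counts per control sample and 644 to 663 counts per knockdown sample.

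ADAM19 lies on chromosome 5 at 157395534 to 157575775 on the minus strand (GRCh38, GENCODE v29). Its exons share 62 bases with CYFIP2 on the other strand, which had a mean of 2.76 FPKM, and strand is not marked by any step named in the library protocol. The 250 bases upstream of the RefSeq start of ADAM19 are shown because it changed most, at chr5:157575776-157576025, minus strand, GRCh38.p14.
ADAM19 upstream: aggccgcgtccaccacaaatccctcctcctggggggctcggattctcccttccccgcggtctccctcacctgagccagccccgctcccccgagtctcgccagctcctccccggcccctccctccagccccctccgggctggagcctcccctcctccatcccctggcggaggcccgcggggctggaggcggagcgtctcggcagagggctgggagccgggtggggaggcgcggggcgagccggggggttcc
The window was searched on both strands for the GC box GGGCGG, the AP-1 element TGANTCA, the YY1 core CCATNTT and the TATA box TATAAA, and held none of them, so no base is capitalised. Over all 27305 RefSeq promoter windows of this length the shares with a match were 42.3%, 6.6%, 11.7% and 11.1%. Of the 40 measured proteases 28 had such a window, 19 of them tested genes. Among those 19 the GC box occurred in 15 and the AP-1 element in 1, ADAMTS12, while the YY1 core and the TATA box occurred in 0. The 19 windows had a median GC content of 70.8% and a median of 25 CpG dinucleotides, beside 58.0% and 11 over all promoters. The 19 belong to genes over the expression filter, while the 27305 were not limited to expressed genes. The part of expression in these contrasts was not tested. A match of letters is a description of the window and not a binding site.

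ADAM9 (meltrin gamma, Entrez 8754), a widely expressed sheddase, was at 76.8, 79.0 and 78.9 FPKM in BR-shCON and at 87.8, 85.2 and 88.8 FPKM in BR-shSPANXB1 cells. All knockdown samples lay above all control samples, although the distance was small for a gene at this level. The means were 78.2 ± 1.22 and 87.3 ± 1.83 FPKM (SD, n = 3), and the log2 fold change came to 0.14 (SE 0.04, adjusted p = 0.00902, edgeR's quasi-likelihood test). It lies on chromosome 8 at 38996869 to 39105144 on the plus strand, and part of its counts were not whole. Some of its reads may have been shared out by the authors' counting, whose program was not found.

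The other tested ADAMs did not pass the test. ADAM10 and ADAM17, the principal sheddases of Notch receptors and of TNF and EGF-family ligands, had log2 fold changes of -0.04 (adjusted p = 0.545) and -0.09 (adjusted p = 0.212) in edgeR's test. For ADAM17 the groups were separate by a narrow gap, at 22.9, 22.8 and 23.9 FPKM in BR-shCON against 21.2, 22.2 and 22.8 FPKM in BR-shSPANXB1 cells. ADAM17 shares 1323 exon bases with IAH1 on the opposite strand, which had a mean of 14.4 FPKM, so part of its value may belong to that gene. ADAM15, which binds integrins through its disintegrin domain, had a log2 fold change of -0.01. ADAM8, a protease linked to leukocyte and tumour cell migration, was at 62.08, 59.04 and 49.79 FPKM in BR-shCON against 66.34, 62.55 and 58.43 FPKM in BR-shSPANXB1 cells. Both groups were spread and overlapped, and the samples fell in the same order by number in each. The log2 fold change was 0.12 (SE 0.08, adjusted p = 0.380, edgeR's test), with an adjusted p of 0.000982 when the replicate number was a block.

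Among the ADAMTSs, 7 of the 15 measured genes were tested, 0 rose and 1 fell. ADAMTS1 (Entrez 9510, chromosome 21, 26835747 to 26845409, minus strand) cuts versican and aggrecan and has been described as antiangiogenic. It was at 22.1, 24.5 and 24.0 FPKM in BR-shCON and at 20.1, 20.6 and 21.1 FPKM in BR-shSPANXB1 cells. Every knockdown sample lay below every control sample, and the means were 23.5 ± 1.26 and 20.6 ± 0.510 FPKM (SD, n = 3). The log2 fold change was -0.21 (SE 0.04, adjusted p = 0.00215, edgeR's quasi-likelihood test). With limma on log2(FPKM + 0.1) its adjusted p was 0.0515 and the call was lost.

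ADAMTS12 and ADAMTS15 did not pass the test, although their groups did not overlap. ADAMTS12, which cleaves cartilage oligomeric matrix protein, was at 12.4, 13.1 and 12.8 FPKM in BR-shCON against 13.8, 13.8 and 14.4 FPKM in BR-shSPANXB1 cells, a log2 fold change of 0.11 (adjusted p = 0.0994, edgeR's test). ADAMTS15, a versican-cleaving relative of ADAMTS1, was at 4.60, 4.80 and 4.21 FPKM in BR-shCON against 5.07, 5.41 and 5.09 FPKM in BR-shSPANXB1 cells, a log2 fold change of 0.16 (adjusted p = 0.120, edgeR's test). The remaining tested ADAMTSs were the procollagen peptidase ADAMTS3 at -0.14, ADAMTS6 at 0.03, ADAMTS9 at -0.06 and ADAMTS16 at -0.05 on the log2 scale, and none was called. Summed over the family, the level was 59.4 to 62.9 FPKM in BR-shCON and 59.3 to 61.2 FPKM in BR-shSPANXB1 cells, ranges that overlap.

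BMP1 was the only tolloid astacin over the filter. It removes the carboxy-terminal propeptides of fibrillar procollagens and releases growth factors from latent complexes. Its level was 6.65, 5.45 and 5.57 FPKM in BR-shCON against 6.68, 6.40 and 6.88 FPKM in BR-shSPANXB1 cells. The first control sample lay among the knockdown samples, and the log2 fold change of 0.17 (SE 0.08) did not pass the test (adjusted p = 0.183, edgeR's quasi-likelihood test). Without that control sample the log2 fold change was 0.27 and the adjusted p 0.0473.

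ECE1 (Entrez 1889, chromosome 1, 21217247 to 21345572, minus strand), which shares 240 exon bases with the antisense gene AL031728.1, encodes the endothelin-converting enzyme and was the only tested member of the neprilysin family. It was at 69.6, 68.6 and 62.6 FPKM in BR-shCON and at 77.1, 78.1 and 72.1 FPKM in BR-shSPANXB1 cells. Sample 3 was the lowest of its group in both lines, and all knockdown samples still lay above all control samples. The means were 66.9 ± 3.75 and 75.8 ± 3.23 FPKM (SD, n = 3), and the log2 fold change came to 0.17 (SE 0.04, adjusted p = 0.00802, edgeR's quasi-likelihood test). Without BR-shSPANXB1 sample 2 the adjusted p was 0.0561, and with limma on log2(FPKM + 0.1) it was 0.0609.

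**Figure D3:**
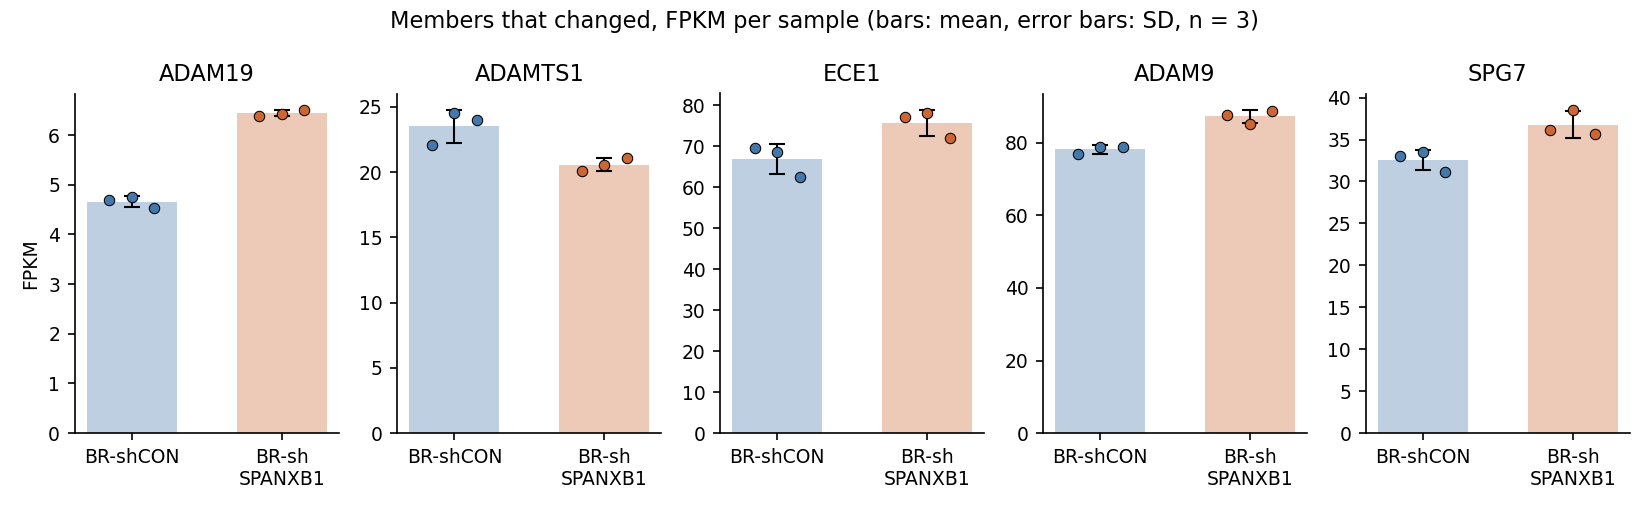
FPKM of ADAM19, ADAMTS1, ECE1, ADAM9 and SPG7 in each sample, with bars for group means, error bars for the SD (n = 3) and axes from 0. The groups are separate in all 5 genes, and only ADAM19, from 4.66 to 6.44 FPKM, moves by more than a small part of its level.

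The cytosolic and organellar peptidases held 0 called genes among the 2 oligopeptidases and 0 among the 4 proteases of the pitrilysin fold. Neurolysin (NLN), which cuts neurotensin, was at 17.8, 18.2 and 18.6 FPKM in BR-shCON against 15.2, 17.1 and 17.9 FPKM in BR-shSPANXB1 cells. The groups overlapped by a narrow margin, and the log2 fold change was -0.14 (adjusted p = 0.0666, edgeR's test). NLN passed the test without BR-shSPANXB1 sample 3 (adjusted p = 0.0302) and without the expression filter (adjusted p = 0.0453). The related THOP1 had a log2 fold change of -0.01. In the pitrilysin group, the log2 fold changes were -0.08 for IDE, which degrades insulin and amyloid beta, 0.00 for NRDC, which enhances shedding by ADAMs, 0.03 for PITRM1, which degrades mitochondrial presequences, and 0.08 for PMPCB, the catalytic subunit of the mitochondrial processing peptidase. PMPCB was separate between the groups, at 42.1, 42.5 and 40.8 FPKM in BR-shCON against 42.8, 46.9 and 43.4 FPKM in BR-shSPANXB1 cells, yet did not pass the test (adjusted p = 0.282, edgeR's test). It shares 628 exon bases with DNAJC2 on the opposite strand (mean 14.7 FPKM), and part of its counts were not whole. NRDC shares 163 exon bases with OSBPL9 on the opposite strand (mean 49.1 FPKM).

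Among the 4 mitochondrial membrane proteases, 1 rose. SPG7 (paraplegin, Entrez 6687, chromosome 16, 89490719 to 89557768, plus strand) is a subunit of the m-AAA protease of the inner membrane, whose loss causes a hereditary spastic paraplegia. It was at 33.1, 33.5 and 31.2 FPKM in BR-shCON and at 36.2, 38.6 and 35.7 FPKM in BR-shSPANXB1 cells. The knockdown samples all lay above the control samples, with means of 32.6 ± 1.23 and 36.8 ± 1.56 FPKM (SD, n = 3) and a log2 fold change of 0.16 (SE 0.05, adjusted p = 0.0204, edgeR's quasi-likelihood test). SPG7 lost its call under more alternatives than the other 4 called genes. Without BR-shCON sample 3 its adjusted p was 0.0697, without BR-shSPANXB1 sample 2 it was 0.143, and with DESeq2 it was 0.0530.

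The partner subunit of SPG7 in the m-AAA protease, AFG3L2, had a log2 fold change of -0.03 (adjusted p = 0.750, edgeR's test), and 837 of its exon bases overlap TUBB6 on the opposite strand, which had a mean of 155 FPKM. YME1L1, the i-AAA protease, had a log2 fold change of 0.03 and shares 443 exon bases with MASTL on the opposite strand (mean 14.4 FPKM). OMA1, a stress-activated protease that cuts OPA1, had a log2 fold change of -0.01. Summed over the 4 genes, the level was 133 to 135 FPKM in BR-shCON and 139 to 140 FPKM in BR-shSPANXB1 cells. ZMPSTE24, which makes the final cut of prelamin A, was at 39.3 to 42.9 FPKM over all samples with overlapping groups, and its log2 fold change of -0.06 was not called.

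In FPKM, the groups did not overlap in 9 of the 26 genes, 7 higher and 2 lower, beside 28.6% of all tested genes in either direction. The shares by direction over all tested genes were not worked out, so this split does not set the 26 genes apart. FPKM itself was slightly higher in the knockdown. On log2(FPKM + 0.1) the median log2 fold change over all tested genes was 0.0179, beside 0.0002 in the main fit. The 7 higher genes were ADAM9, ADAM19, ADAMTS12, ADAMTS15, ECE1, PMPCB and SPG7, and the 2 lower genes were ADAM17 and ADAMTS1.

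Samples that bear the same replicate number deviated weakly together, with correlations of 0.113 to 0.159. With the number as a block edgeR called 9 of the 26 genes, 7 higher and 2 lower, beside 25.7% of all tested genes in either direction. Shares by direction over all tested genes were not worked out for the block. The block added ADAM8 (adjusted p = 0.000982), ADAMTS12 (adjusted p = 0.0119) and ADAMTS15 (adjusted p = 0.0430) on the higher side and NLN (adjusted p = 0.00505) on the lower side. The ratios of scaled counts between same-numbered samples come from the same data as these calls and are not a separate test of them. For ADAM8 these log2 ratios were 0.0817, 0.0751 and 0.213, so each knockdown sample exceeded the control of its own number even though the groups overlapped. For NLN they were -0.229, -0.0942 and -0.114, all below 0. Of the 26 genes, 10 were higher in all 3 pairs, 5 were lower in all 3, and 11 were split. The matching shares over all tested genes were not worked out, so these counts do not set the 26 genes apart from other genes.

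**Figure D4:**
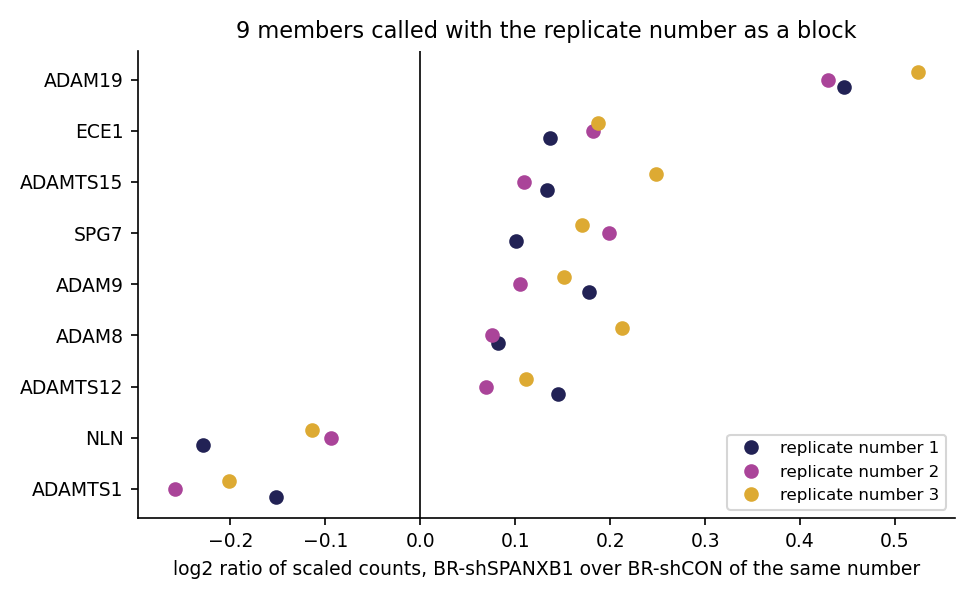
Log2 ratio of scaled counts, BR-shSPANXB1 over the BR-shCON sample of the same replicate number, for the 9 genes called with the replicate block; colours mark the 3 replicate numbers. All 3 ratios lie on the same side of 0 in each of these genes, which largely follows from choosing them by that fit. Those of ADAM19, between 0.43 and 0.52, are apart from the rest.

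Genes that act with these proteases were read from the same fit, in 6 lists. The lists were written from general knowledge, but with earlier results of these data known. Their counts stand beside the 6.82% of all tested genes called higher and the 6.98% called lower, and no list was tested as a whole. Maturation and traffic factors were nearly all uncalled, with 1 of 12 tested higher and 0 lower and a median log2 fold change of -0.03. The called gene was FURIN, a proprotein convertase that removes the prodomain of many ADAMs and ADAMTSs. It was at 17.87, 18.68 and 14.96 FPKM in BR-shCON against 20.31, 19.93 and 18.83 FPKM in BR-shSPANXB1 cells, with the third control sample lowest and no overlap (log2 fold change 0.19, SE 0.06, adjusted p = 0.0371, edgeR's test). FURIN lost the call without BR-shCON sample 3 (adjusted p = 0.217), without BR-shSPANXB1 sample 1 (0.138) or sample 2 (0.136), with DESeq2 (0.0812) and with limma (0.145). The block added RHBDF2, an iRhom that carries ADAM17 to the cell surface, at a log2 fold change of 0.15 (adjusted p = 0.0285, edgeR's test with the block).

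Of the 5 tested inhibitors, 1 was higher and 1 lower, beside 6.82% and 6.98% of all tested genes. The median log2 fold change was -0.09. TIMP3, which is bound to the matrix and inhibits ADAM17 and several ADAMTSs, was at 120, 116 and 121 FPKM in BR-shCON against 131, 129 and 135 FPKM in BR-shSPANXB1 cells (log2 fold change 0.13, SE 0.04, adjusted p = 0.0205, edgeR's test). TIMP1, which inhibits ADAM10 and most matrix metalloproteinases, moved the other way, from 112, 108 and 102 FPKM to 99.5, 95.1 and 97.4 FPKM (log2 fold change -0.17, SE 0.05, adjusted p = 0.0372, edgeR's test). The groups overlapped for neither gene. TIMP3 lost the call without BR-shCON sample 2 (adjusted p = 0.120) or BR-shSPANXB1 sample 3 (0.104). It also lost it, narrowly, with limma on log2(FPKM + 0.1), at an adjusted p that rounded to 0.05. TIMP1 lost it without any sample but BR-shCON sample 3, at adjusted p values of 0.0617 to 0.188, with DESeq2 (0.0996) and with limma (0.0790). With the block, edgeR also called TIMP2 and RECK lower, at log2 fold changes of -0.07 (adjusted p = 0.0315) and -0.24 (adjusted p = 0.0463). RECK was lower with limma on log2(FPKM + 0.1) too (adjusted p = 0.0398).

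The list of shed membrane proteins held the largest differences among the partners. Of 20 tested, 4 were higher and 3 lower, beside 6.82% and 6.98% of all tested genes. The median log2 fold change was -0.01. L1CAM, a neural adhesion molecule cut by ADAM10, was at 4.36, 3.99 and 4.03 FPKM in BR-shCON against 7.71, 8.21 and 7.50 FPKM in BR-shSPANXB1 cells, the highest fold of any partner gene called (log2 fold change 0.91, SE 0.07, adjusted p = 7.64e-11, edgeR's test). The heparan sulphate proteoglycan SDC4, the receptor tyrosine kinase AXL and the EGF receptor ligand TGFA rose by log2 fold changes of 0.25, 0.22 and 0.23. The 3 that fell, named after their values were seen, were the EGF receptor ligands AREG at -0.35 and EREG at -0.21 and the receptor IL6R at -0.49, the last at only 0.88 to 1.58 FPKM. AREG was called in every alternative. For EREG the groups overlapped, at 43.89, 38.83 and 43.03 FPKM in BR-shCON against 39.74, 33.55 and 36.39 FPKM in BR-shSPANXB1 cells. EREG lost the call without BR-shCON sample 3 (adjusted p = 0.0835) or BR-shSPANXB1 sample 2 (0.0592) and with limma on log2(FPKM + 0.1) (0.106). IL6R lost it without BR-shCON sample 3 (0.0896) or BR-shSPANXB1 sample 1 (0.0588) or 3 (0.0569), with DESeq2 (0.0709) and with limma (0.136), and on log2(FPKM + 1) its log2 fold change was -0.24. Of the other EGF-family ligands on the list, HBEGF at -0.04 and NRG1 at -0.02 were not called, and BTC was under the filter.

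Among matrix substrates and ADAMTS-like proteins, 4 of 12 tested were higher and 1 lower, beside 6.82% and 6.98% of all tested genes. The median log2 fold change was -0.04. THBS1, a matricellular protein that is cut by ADAMTS1, was at 43.1, 44.6 and 45.9 FPKM in BR-shCON against 57.6, 54.6 and 57.6 FPKM in BR-shSPANXB1 cells, well apart (log2 fold change 0.34, SE 0.04, adjusted p = 4.31e-07, edgeR's test). LTBP1, which anchors latent TGF-beta and is cut by BMP1, rose by a log2 fold change of 0.32, and the collagen chains COL7A1 and COL5A1, both from procollagens that BMP1 processes, rose by 0.20 and 0.16. PCOLCE2, an enhancer of BMP1 named after its values were seen, fell, with a log2 fold change of -0.29. COL5A1 and PCOLCE2 lost the call whichever sample was left out, at adjusted p values of 0.0535 to 0.125 and of 0.0514 to 0.164, and with DESeq2 (0.103 and 0.177). COL7A1 and COL5A1 lost it with limma on log2(FPKM + 0.1), at adjusted p values of 0.0700 and 0.114. VCAN, ACAN and BCAN, the proteoglycan substrates of ADAMTS1, did not pass the filter.

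In the list of mitochondrial proteolysis and the prohibitin complex, 0 of 15 tested genes were called by edgeR, beside 13.8% of all tested genes. The count was 0 by DESeq2, by limma and with the block as well, and 0 genes had an unadjusted p under 0.05 in edgeR's test. Of the 7 genes of prelamin A processing, LMNA, the substrate of ZMPSTE24, was higher with a log2 fold change of 0.14 (adjusted p = 0.0142) and LMNB2, another lamin, was lower with one of -0.12 (adjusted p = 0.0323) in edgeR's test. LMNA was at 266, 273 and 254 FPKM in BR-shCON against 293, 300.2 and 287 FPKM in BR-shSPANXB1 cells, without overlap. It lost the call without BR-shCON sample 3 (adjusted p = 0.0568) or BR-shSPANXB1 sample 2 (0.0677), and LMNB2 without BR-shCON sample 1 (0.130) or 2 (0.0844) or BR-shSPANXB1 sample 1 (0.112) or 3 (0.0842). With limma on log2(FPKM + 0.1) both lost it, at adjusted p values of 0.0505 and 0.122. The 1 higher and 1 lower gene of the 7 stand beside 6.82% and 6.98% of all tested genes. The median log2 fold change of the prelamin A list was 0.11.

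**Figure D5:**
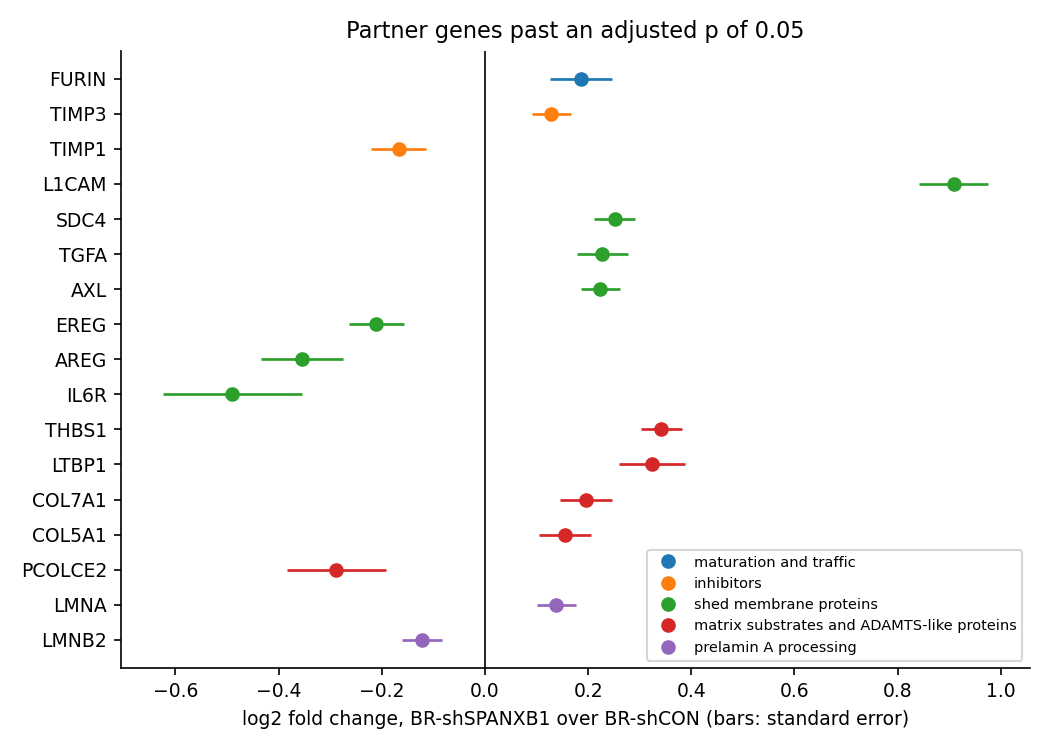
Log2 fold change with its standard error for the 17 partner genes past an adjusted p of 0.05, coloured by list. L1CAM stands apart at 0.91, all other points lie between -0.49 and 0.34, and both directions occur in 4 of the 5 lists shown.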

How the data were processed

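RNA-seq of 3 BR-shCON and 3 BR-shSPANXB1 samples was used, with groups read from the sample titles. Values were deposited as estimated counts without normalization and as FPKM, for which the authors divided by transcript length and library size. Tools in the submitters' processing notes are Bowtie2 2.2.5 and HISAT2 2.0.4, with the build GRCh38.p12 and no role for any of them. Neither the counting program nor the annotation was found in the labels or the methods. TPM columns and the authors' columns of group means were not used.

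The members and lists were chosen with earlier results of these data known. Every member was named, as were SPANXB1 and up to 4 called genes per partner list by smallest p. Estimated counts, of which 14.5% were not whole, were rounded. They were tested with edgeR 4.0.16 (TMM scaling and a robust quasi-likelihood test) under R 4.3.3. Genes had to average at least 1 FPKM, and p-values were adjusted by Benjamini-Hochberg over all 11439 of them. Fold changes are BR-shSPANXB1 over BR-shCON. Alternatives used DESeq2 1.42.0, RLE factors, no filter, an average FPKM of at least 5, an average count of at least 10, limma 3.58.1 on log2(FPKM + 0.1) or log2(FPKM + 1), the replicate number as a block, and leaving out each sample in turn. The steps were tested on simulated data. Depth was nearly equal between samples, so precision rests on the 3 samples per group and on counting error for low genes. Counts of 2 samples of the same group differed by more than sampling noise in every pair, so no library was counted as a duplicate.

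Pairing was checked on log2 CPM computed from the counts, as the correlation across genes of each sample's deviation from its group mean. For samples of the 2 groups with different numbers it lay between -0.105 and -0.0306. For samples with the same number it was 0.113, 0.150 and 0.159. All exceed 0.1, but they are small, and deviations from a mean of 3 samples are tied to each other. The check therefore describes the samples and cannot settle whether the numbers mark pairs. The main calls still come from the fit without the block, which had been set as the design, and the fit with the block is given beside them. On log2(FPKM + 0.1) the correlation for replicate number 1 was 0.0964. The statistics paragraph of the methods describes replicates from separate batches of cells, but the RNA-seq paragraph does not. What a number shares is not stated. The hairpin sequence was read from the supplementary oligonucleotide list of the study, promoters from RefSeq on GRCh38.p14, and positions of genes from GENCODE v29.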

Additional observations from a re-analysis of the deposited data

How the results depend on the processing

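Over 14 alternatives, ADAM19 and ADAM9 were called in every one, and 326 of the 361 values of single tested members kept their direction and their side of the threshold, while 10 lost the call, 7 gained it and 18 turned sign. All genes called numbered 1579, against 1020 with DESeq2, 866 and 873 with limma on log2(FPKM + 0.1) and log2(FPKM + 1), 2935 with the replicate block, and 1041 to 1466 when a sample was left out. Members called higher numbered 4, against 2 and 2 with limma, 7 with the block and 2 (without BR-shSPANXB1 sample 2) to 5 (without BR-shCON sample 1) when a sample was left out. Members called lower numbered 1, against 2 with no filter, 0 and 0 with limma, 2 with the block and 1 to 2 when a sample was left out, the latter without BR-shSPANXB1 sample 3. Maturation factors numbered 1, against 0 with DESeq2, 0 with each limma fit, 2 with the block and 0 to 1 without a sample. Inhibitors numbered 2, against 1 with DESeq2 (TIMP3), 1 with limma on log2(FPKM + 0.1) (RECK), 4 with the block and 0 to 2 without a sample. Matrix substrates numbered 5, against 3 with DESeq2, 3 with each limma fit and 3 whichever sample was left out. Prelamin A genes numbered 2, against 0 with each limma fit and 1 whichever sample was left out. The pairing by replicate block changed no other call of a member than the 4 it added. Only uncalled values near 0 turned sign. With limma on log2(FPKM + 0.1) and log2(FPKM + 1), ADAM15 stood at 0.0039 and 0.0038, THOP1 at 0.0031 and 0.0029 and OMA1 at 0.015 and 0.013. The median log2 fold change over all tested genes in these fits was 0.0179 and 0.0164, beside 0.0002 in the main fit. When a sample was left out, ADAM15 ranged from -0.067 to 0.047, ADAMTS6 from -0.043 to 0.092, THOP1 from -0.017 to 0.0098, NRDC from -0.026 to 0.041 and OMA1 from -0.070 to 0.077 on the log2 scale. The cause of these differences was not tested. Depth limits the 10 members under the filter that averaged fewer than 10 counts.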
